A study of Mus musculus with 6 samples.

Results

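The genes described here are 8 members of the mouse MS4A cluster on chromosome 19, out of 41128 genes in the deposited expression table: *Ms4a3*, *Ms4a4b*, *Ms4a4c*, *Ms4a6b*, *Ms4a6c*, *Ms4a6d*, *Ms4a7* and the neighboring predicted gene *Gm8369*. They were picked by gene symbol, and the cluster was chosen for the low levels of *Ms4a6c* and *Ms4a6b* in Hoxa9/IRX3 versus Hoxa9/MTV leukemias. That contrast is the only one in the series, so the values of the members are given as a description, without p-values.

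RNA was sequenced from flow-sorted leukemia cells of 6 mice. In the Hoxa9/MTV cohort (mice 1.1, 1.2 and 1.4), KIT+ marrow cells of female CD45.1+ B6.SJL congenic donors (strain C57BL/6 in the labels) had been transduced with retroviral *Hoxa9* and the empty vector MTV. In the Hoxa9/IRX3 cohort (mice 3.2, 3.3 and 3.5), the same kind of cells carried *Hoxa9* and a retrovirus for human *IRX3*, an Iroquois homeobox gene. All were transplanted into irradiated female CD45.2+ recipients, and donor-derived KIT+Gr1+ cells were sorted from thawed bone marrow (BM) once the mice were sick. Both cohorts therefore share *Hoxa9* overexpression from a retroviral vector, the donor strain, the transplant and the sort. The comparison asks what co-expression of *IRX3* changes in *Hoxa9* leukemia cells. The study reported a later onset of leukemia in Hoxa9/IRX3 than in Hoxa9/MTV recipients. Time since transplant and recipient age at harvest may therefore differ between the cohorts, and cannot be told apart from *IRX3*. *Hoxa9* stood at 340, 363 and 174 RPKM (reads per kilobase of gene, scaled to library size) in mice 1.1, 1.2 and 1.4, and at 242, 154 and 221 in mice 3.2, 3.3 and 3.5. The introduced *IRX3* is human. Mouse *Irx3* was listed at 0 RPKM throughout Hoxa9/MTV, while mice 3.2, 3.3 and 3.5 had 15.1, 0.421 and 0.148 RPKM. Library depth lay between 7979246 and 9803621 reads. *Kit* was at 1.63 to 3.12 RPKM across the 6 mice. Of the genes for the Ly6 antigens that Gr1 antibodies recognize, *Ly6c2* was at 413 to 844 RPKM and *Ly6g* at 0.0532 to 1.42.

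MS4A genes encode small proteins that cross the membrane several times. The best known are *Ms4a1*, which encodes the B cell antigen CD20, and *Ms4a2*, which encodes the beta chain of the high-affinity IgE receptor of mast cells and basophils. In myeloid cells, *Ms4a3* marks granulocyte and monocyte progenitors and its product binds the CDK-associated phosphatase encoded by *Cdkn3*. Members of the *Ms4a4* and *Ms4a6* groups are expressed in monocytes, macrophages and T cells, and the genes lie side by side as copies that arose by duplication.

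The promoters of the members are shown because the genes that were low fall into a pair of groups, *Ms4a6b* with *Ms4a6c* and *Ms4a4b* with *Ms4a4c* and *Gm8369*, and the copies within a group resemble each other also before their start sites. The RefSeq promoter set used (GRCm38.p6) held a start site for 7 of the 8 members, all but *Ms4a6d*. A single start site was kept for each gene. For *Gm8369*, *Ms4a4c* and *Ms4a6b* it lies inside the annotated gene span, which begins further upstream. Distances to a start therefore hold for that start site only. The sequences are printed on the strand of the gene, 5′ to 3′, ending at the last base before the start site. For *Ms4a6c* and *Ms4a6b* 250 bases are given, and for the others the nearest 100. Capitals mark letter matches to GGAAGT (the core recognized by PU.1 and other ETS factors), to GAAANNGAA (an interferon-response type element) or to CCNCNCCC (a KLF type element), each on either strand.
Ms4a6c, chr19:11469118-11469367, plus strand: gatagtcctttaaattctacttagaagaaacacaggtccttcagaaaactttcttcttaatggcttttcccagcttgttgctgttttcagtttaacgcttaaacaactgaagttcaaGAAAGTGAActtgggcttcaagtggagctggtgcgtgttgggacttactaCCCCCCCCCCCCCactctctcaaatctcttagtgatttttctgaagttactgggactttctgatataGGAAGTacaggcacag
Ms4a6b, chr19:11518309-11518558, plus strand: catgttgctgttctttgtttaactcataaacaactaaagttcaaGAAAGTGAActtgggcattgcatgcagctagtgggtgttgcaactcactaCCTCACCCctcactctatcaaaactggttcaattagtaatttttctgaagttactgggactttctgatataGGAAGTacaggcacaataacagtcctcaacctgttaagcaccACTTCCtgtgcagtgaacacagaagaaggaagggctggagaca
Ms4a4c, chr19:11407561-11407660, plus strand: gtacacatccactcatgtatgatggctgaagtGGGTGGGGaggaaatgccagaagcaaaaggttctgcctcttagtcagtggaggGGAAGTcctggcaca
Ms4a4b, chr19:11443458-11443557, plus strand: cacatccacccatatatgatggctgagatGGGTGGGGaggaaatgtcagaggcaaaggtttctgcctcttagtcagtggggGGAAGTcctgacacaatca
Gm8369, chr19:11491938-11492037, plus strand: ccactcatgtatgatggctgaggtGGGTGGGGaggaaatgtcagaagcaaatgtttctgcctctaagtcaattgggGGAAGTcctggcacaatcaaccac
Ms4a3, chr19:11640852-11640951, minus strand: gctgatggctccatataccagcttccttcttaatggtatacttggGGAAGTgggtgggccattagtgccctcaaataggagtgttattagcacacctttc
Ms4a7, chr19:11336147-11336246, minus strand: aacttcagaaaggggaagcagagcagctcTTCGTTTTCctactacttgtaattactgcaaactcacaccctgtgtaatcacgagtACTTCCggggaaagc

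The GGAAGT core was present in 7 of 7 member promoters, scored over 300 bases reaching past the start site, and in 24.1% of the 27025 RefSeq promoters of that length. It began 15, 19, 16 and 24 bases before the start of *Ms4a4c*, *Ms4a4b*, *Ms4a6c* and *Gm8369*, and 85 bases before that of *Ms4a6b*. *Ms4a6b* also held a nearer match at 43 bases, on the other strand. The core was also present before *Ms4a3* (55 bases), which was tested and not called. In *Ms4a7*, which was too low to test, it began 15 bases before the start, on the other strand. Among the 11 other *Ms4a* promoters the core was found in 2, those of *Ms4a12* and *Ms4a4d*. It was not found in those of *Ms4a4a* and *Ms4a8a*, which were also lower in every Hoxa9/IRX3 mouse. The element GAAANNGAA was present in 3 member promoters, against 8.57% of all promoters. In *Ms4a6c* and *Ms4a6b* it had the same letters and preceded the GGAAGT core by 117 and 121 bases. The KLF type element was found in 5 member promoters and in 49.1% of all promoters. In *Ms4a6c* its letters were matched by a plain run of C. No member promoter held the letters ACANNTGT, used for Iroquois factors (7.36% of all promoters), or TGATTNAT, used for HOX factors with their partners (3.36%). The longer PU.1 form GAGGAAGT was also in 0 member promoters (3.28% of all), while TTGCNNAA, used for C/EBP factors, was in 1 (*Ms4a3*, against 10.8% of all) and the IRF and ETS composite GGAANNGAA in 1 (*Ms4a6c*, against 8.25%). These are matches of letters and not measured binding sites.

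The promoters fell into the same groups as the coding sequences. Over the 175 bases that could be aligned, the *Ms4a6b* and *Ms4a6c* promoters were 85.1% identical. The *Ms4a4b* promoter was 80.1% identical to that of *Ms4a4c* and 77.5% identical to that of *Gm8369*. In the coding sequence, *Ms4a4b* and *Ms4a4c* were identical at 91.7% of aligned bases, *Ms4a6b* and *Ms4a6c* at 86.4%, and *Ms4a6b* and *Ms4a6d* at 81.8%. The shorter coding sequence of *Gm8369*, of 498 bases, was 91.1% identical to that of *Ms4a4c* where the pair could be aligned, which places it beside the *Ms4a4* group. Between these groups the resemblance was low, for example 60.8% in the coding sequence and 61.8% in the promoter for *Ms4a4c* and *Ms4a6c*. *Ms4a3* had 62.7% to 66.8% identity to the other members.

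*Ms4a6c* (ENSMUSG00000079419, plus strand, chr19:11469366-11482192), which encodes a membrane protein of monocytes, stood at 28.4, 22.6 and 32.2 RPKM in Hoxa9/MTV, against 0.941, 0.199 and 1.26 RPKM in Hoxa9/IRX3. Every Hoxa9/IRX3 mouse was low, and the lowest Hoxa9/MTV mouse was 17.9-fold above the highest Hoxa9/IRX3 mouse. The means were 27.7 ± 4.83 and 0.800 ± 0.545 RPKM (SD, n = 3 each), a ratio of 34.7, and the log2 fold change of log2(RPKM + 0.5) was -4.53 with a standard error (SE) of 0.35. The counts behind these values were 3224, 2409 and 3995 reads against 107, 25 and 129. Among the 9522 protein-coding genes tested, this was the fall ranked 1 on log2(RPKM + 0.5), a scale that shrinks the falls of lower genes. By RPKM per gene span, introns included, *Ms4a6c* moved from percentile 95.8 of mean level in Hoxa9/MTV to percentile 21.8 in Hoxa9/IRX3. The cluster was chosen for this fall. In bulk RNA from sorted cells, fewer cells of a type and less RNA per cell cannot be told apart.

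*Ms4a6b* (ENSMUSG00000024677, plus strand, chr19:11516512-11531256), the near copy of *Ms4a6c*, was at 6.33, 5.53 and 7.36 RPKM in Hoxa9/MTV and at 0.214, 0.0484 and 0.578 RPKM in Hoxa9/IRX3. The cohorts did not overlap, and mouse 3.5 was the highest and mouse 3.3 the lowest of the Hoxa9/IRX3 mice, as for *Ms4a6c*. The mean fell from 6.40 ± 0.916 to 0.280 ± 0.271 RPKM, with a log2 fold change of -3.19 (SE 0.25), the fall ranked 7. Of the 75-base windows of *Ms4a6c* transcripts 1.11% were found unchanged in another family member, as were 0.632% of those of *Ms4a6b*. The study removed non-primary and low-quality alignments and scaled to uniquely mapped reads. What became of reads matching both genes is not stated beyond that. The ratio of *Ms4a6c* to *Ms4a6b* reads was 3.91, 3.56 and 3.81 in the Hoxa9/MTV mice. It was 3.82 and 3.57 in mice 3.2 and 3.3, and 1.90 in mouse 3.5, where *Ms4a6b* had 68 reads.

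*Ms4a4c* (ENSMUSG00000024675, plus strand, chr19:11404770-11427246) was at 0.800, 0.343 and 0.911 RPKM in Hoxa9/MTV and at 0, 0 and 0.0558 RPKM in Hoxa9/IRX3, from 159, 64 and 198 reads against 0, 0 and 10. The cohorts did not overlap. Its log2 fold change was -1.16 (SE 0.23), a scale on which the added 0.5 understates the change of a gene this low, and it passed the filter on low values (RPKM over 0.5 in at least 1 mouse) through Hoxa9/MTV alone. The call on *Ms4a4c* was lost on leaving out any 1 of the 6 mice, with log2 fold changes between -1.39 and -1.02.

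*Ms4a4b* (plus strand, chr19:11443553-11467055), known from T cells, did not pass that filter. It was at 0.328, 0.247 and 0.238 RPKM in Hoxa9/MTV and at 0, 0 and 0.0125 RPKM in Hoxa9/IRX3, or 58, 41 and 46 reads against 0, 0 and 2. *Gm8369* (plus strand, chr19:11485938-11512577), which lies between *Ms4a6c* and *Ms4a6b*, had 41, 55 and 68 reads in Hoxa9/MTV and 2, 1 and 0 in Hoxa9/IRX3. Nearly all reads of both genes came from the Hoxa9/MTV mice. Pooled over the mice of a cohort and scaled for depth, the read rate was 72.0 times higher in Hoxa9/MTV for *Ms4a4b* (95% interval 19.6 to 600) and 54.3 times higher for *Gm8369* (18.3 to 266). These intervals are exact and conditional on the total, and cover counting error only, not the spread between mice.

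*Ms4a3* (ENSMUSG00000024681, minus strand, chr19:11629496-11640851) behaved otherwise. It was at 21.1, 19.8 and 19.1 RPKM in Hoxa9/MTV and at 49.2, 9.33 and 49.1 RPKM in Hoxa9/IRX3. Mice 3.2 and 3.5 were above every Hoxa9/MTV mouse and mouse 3.3 was below all of them, so the cohorts overlapped. The means were 20.0 ± 0.999 and 35.9 ± 23.0 RPKM, and the coefficient of variation was 5.00% in Hoxa9/MTV and 64.1% in Hoxa9/IRX3. The log2 fold change of 0.50 (SE 0.62) was not called. Without mouse 3.3 it was 1.28 and *Ms4a3* was called higher, so that 1 library decided the call.

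*Ms4a6d* (minus strand, chr19:11586604-11604849), a macrophage gene whose coding sequence resembles that of *Ms4a6b*, was at 0.0682, 0.0528 and 0.176 RPKM in Hoxa9/MTV and at 0.192, 0.0112 and 0.0824 in Hoxa9/IRX3. The cohorts overlapped, and the pooled read rate of Hoxa9/MTV over Hoxa9/IRX3 was 1.10 (counting interval 0.723 to 1.69). *Ms4a7* (minus strand, chr19:11321039-11336146), a gene of mature macrophages and microglia, had 5 reads in mouse 1.1 and 0 reads in the other mice. A difference in *Ms4a7* was not detectable at this depth.

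**Figure D1:**
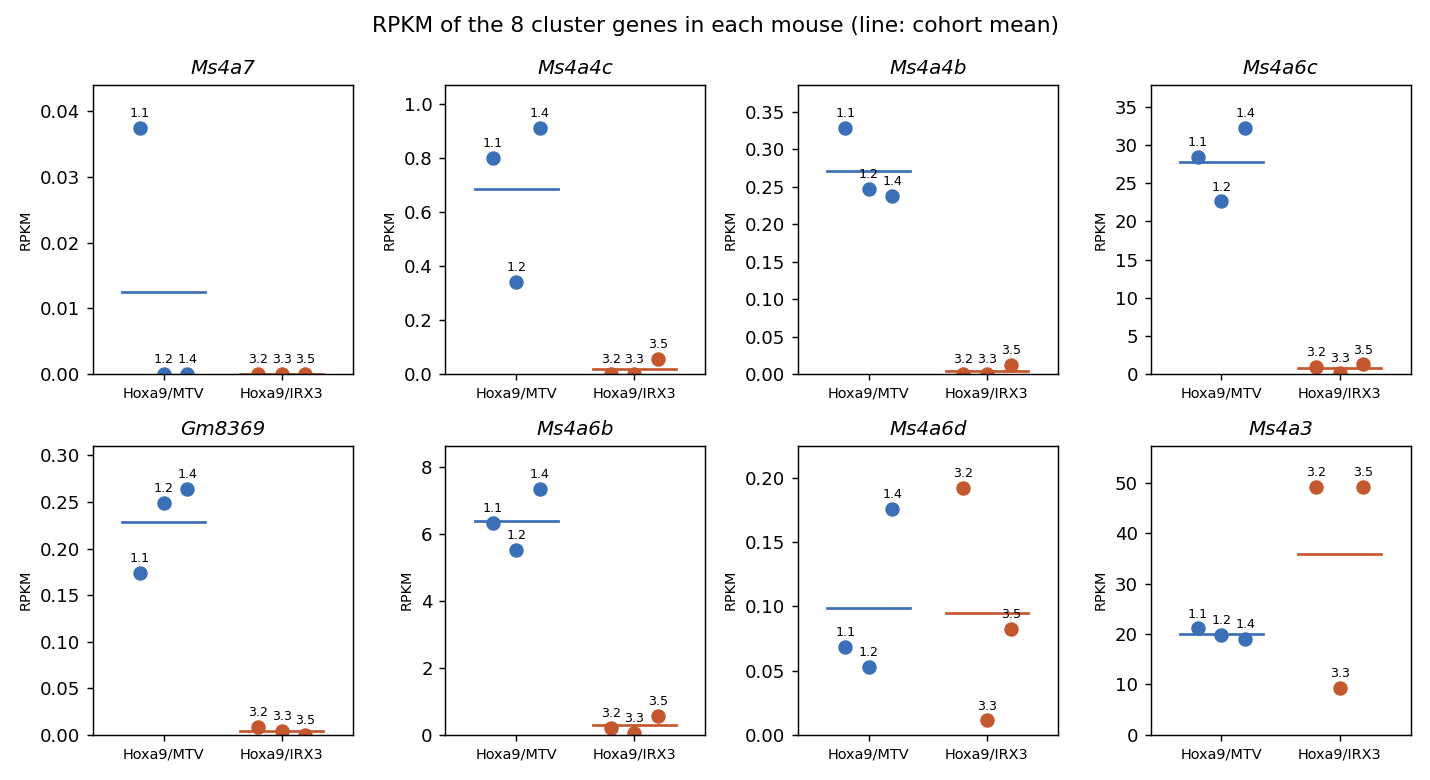
RPKM (vertical axes, linear, scaled separately for each gene) of the 8 members in the 3 Hoxa9/MTV mice (blue) and the 3 Hoxa9/IRX3 mice (orange), each point 1 mouse with its number and each line the cohort mean. *Ms4a4c*, *Ms4a4b*, *Ms4a6c*, *Gm8369* and *Ms4a6b* lie lower in each Hoxa9/IRX3 mouse than in any Hoxa9/MTV mouse, while *Ms4a7*, *Ms4a6d* and *Ms4a3* overlap, with mouse 3.3 at 9.33 RPKM of *Ms4a3*.

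Of the 8 members, 4 could be tested, 3 were called lower (limma, adjusted p under 0.05 and at least 2-fold) and 0 were called higher. Over all 9522 tested genes, 2.03% were called lower and 1.10% higher, and 2315 genes had an unadjusted p under 0.05. The median log2 change of the 4 tested members was -2.18, and that of all tested genes was -0.06. All Hoxa9/IRX3 mice were below all Hoxa9/MTV mice for 5 of the 8 members, as they were for 17.5% of the 14755 protein-coding genes with a read. The members were selected on this contrast, so these shares are set side by side without reading anything from them.

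**Figure D2:**
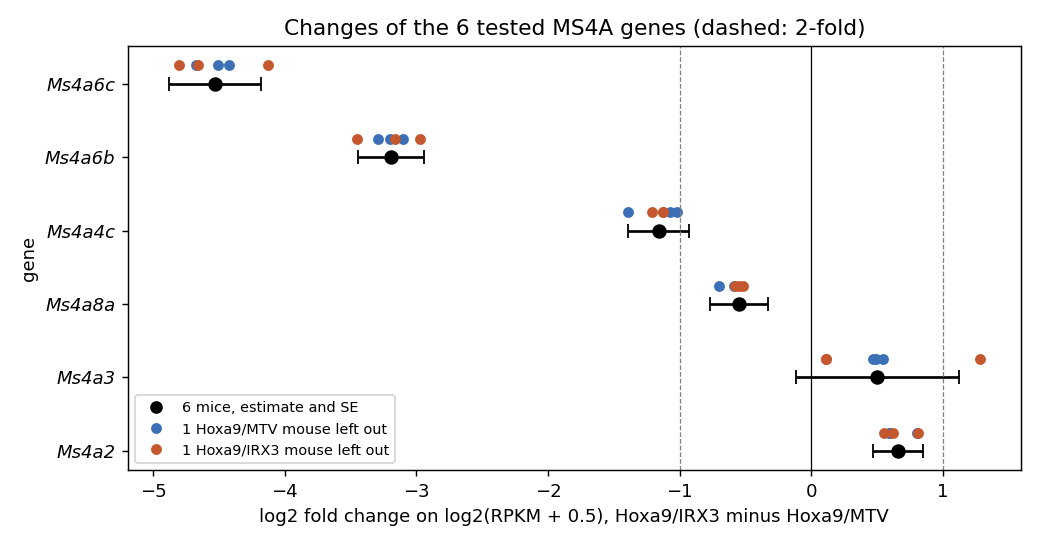
Log2 fold change of log2(RPKM + 0.5), Hoxa9/IRX3 minus Hoxa9/MTV (horizontal axis), for the 6 MS4A genes that passed the filter; black points are the estimates from 6 mice with their SE, small points leave out 1 Hoxa9/MTV mouse (blue) or 1 Hoxa9/IRX3 mouse (orange), and dashed lines mark 2-fold. *Ms4a6c* stays between -4.80 and -4.13 and *Ms4a6b* between -3.45 and -2.97, while *Ms4a3* ranges from 0.11 to 1.28.

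The order of the members changed between the cohorts. The deposited RPKM divide by the whole gene span with its introns, so levels were compared between genes per kilobase of exon. On that scale *Ms4a6c* ranked first in Hoxa9/MTV, at 174 ± 30.2 RPKM of exon (SD, n = 3), followed by *Ms4a3* (120 ± 6.02), *Ms4a6b* (21.1 ± 3.01) and *Ms4a4c* (8.79 ± 3.86). *Ms4a6d*, *Gm8369* and *Ms4a4b* followed at 1.04 ± 0.704, 1.02 ± 0.214 and 0.617 ± 0.113, and the first pair of these did not differ beyond their spread. In Hoxa9/IRX3, *Ms4a3* was far above the others at 216 ± 138, and *Ms4a6c* was at 5.01 ± 3.41. *Ms4a6d* (1.00 ± 0.956) and *Ms4a6b* (0.921 ± 0.890) came next and differed by less than their spread.

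The make-up of MS4A transcripts in each mouse is given as a description, since the shares add up to a whole that the low genes help to set. *Gm8369* was left out of these shares. *Ms4a6c* supplied 49.9%, 47.0% and 52.8% of all reads in *Ms4a* genes in mice 1.1, 1.2 and 1.4, but 2.06%, 2.21% and 2.72% in mice 3.2, 3.3 and 3.5. *Ms4a3* supplied 27.7% to 36.4% in Hoxa9/MTV and 92.0% to 95.3% in Hoxa9/IRX3. Mouse 3.3 resembled its cohort in this composition, with *Ms4a3* at 92.0%, although its 1039 *Ms4a3* reads and its total of 1129 family reads were the lowest of the 6 mice. The RPKM ratio of *Ms4a6c* to *Ms4a3* was 1.14 to 1.69 in Hoxa9/MTV and 0.0191 to 0.0257 in Hoxa9/IRX3.

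Most of the family genes that were low lie together, with *Ms4a8a* apart from them. The family genes spanned 678 kb, from chr19:10962293-11640851. Within it, a block of 182 kb (chr19:11375523-11558467) runs from *Ms4a4a* to *Ms4a4d* and holds 7 genes, counting *Gm8369*, all on the plus strand. The other 13 family genes are on the minus strand. In 6 of the 7 genes of the block, every Hoxa9/IRX3 mouse was below every Hoxa9/MTV mouse, as for 17.5% of all protein-coding genes with a read. The exception was *Ms4a4d*, with 1 read in each cohort. *Ms4a4a*, which is not a member, had 21, 14 and 43 reads in Hoxa9/MTV and 0, 0 and 7 in Hoxa9/IRX3, a pooled rate 11.1 times higher in Hoxa9/MTV (counting interval 5.13 to 28.4). *Ms4a8a*, on the minus strand outside the block (chr19:11067471-11081102), was also below in every Hoxa9/IRX3 mouse, with a pooled rate 9.84 times higher in Hoxa9/MTV (5.29 to 20.3). *Ms4a6c* is 2.31 kb from *Ms4a4b* and 3.75 kb from *Gm8369*, and *Ms4a3* lies 147 kb beyond it.

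**Figure D3:**
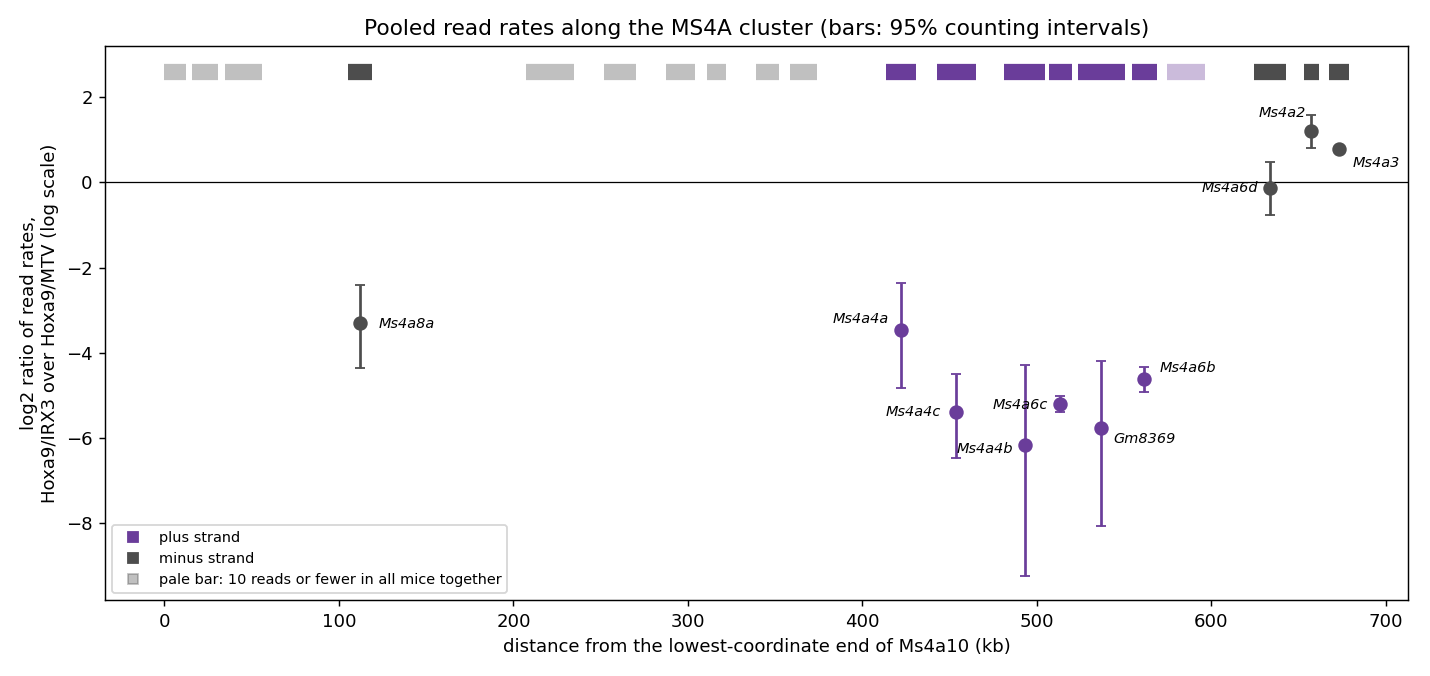
Map of the 20 MS4A cluster genes by distance from one end of *Ms4a10* (horizontal axis, kb); bars at the top are the genes, points are the log2 ratio of pooled read rates, Hoxa9/IRX3 over Hoxa9/MTV (vertical axis), with 95% counting intervals, for genes with more than 10 reads. The plus-strand genes (purple) with a point lie well below 0, from *Ms4a4a* (11.1-fold) to *Ms4a4b* (72.0-fold), as does the minus-strand gene *Ms4a8a* (9.84-fold) to their left, while *Ms4a6d* lies at about 0, and *Ms4a2* and *Ms4a3* at the right-hand end lie above it.

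An antisense transcript, *BE692007* (minus strand, chr19:11470166-11484578), overlaps *Ms4a6c* and was looked at after its values were seen. It had 5, 4 and 9 reads in Hoxa9/MTV and 0 in every Hoxa9/IRX3 mouse, against 2409 to 3995 *Ms4a6c* reads in Hoxa9/MTV. The libraries were strand-specific, but whether the counting used the strand is not given in the sources used here. Transcripts of *BE692007*, *Ms4a6b* and *Prdm11*, read on either strand, together contain 47.7% of the 75-base windows of *Ms4a6c*. Within the family 1.11% were shared, and how the rest divide between *BE692007* and *Prdm11* was not counted. Reads of *Ms4a6c* may therefore have been assigned to another gene.

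Genes on either side of the cluster were not called. Within 500 kb of its ends, 16 genes were tested and 0 were called by limma, with log2 changes from -0.85 (*Stx3*, adjusted p = 0.0784) to 0.30 (*Sdhaf2*, adjusted p = 0.127) and a median of -0.27. *Stx3* was nevertheless lower in every Hoxa9/IRX3 mouse, at 0.158, 0 and 0.348 RPKM against 0.585, 0.620 and 0.843 in Hoxa9/MTV. Its pooled read rate was 4.39 times higher in Hoxa9/MTV (counting interval 3.74 to 5.18). *Osbp*, an oxysterol-binding protein gene, had an adjusted p of 0.0449 by limma at a log2 change of -0.62, which is less than 2-fold. At the edges, *Ccdc86* changed by -0.37 (limma, adjusted p = 0.349) and *Oosp2* was too low to test. In both the cohorts overlapped. Of 14 further annotated genes inside the cluster, 0 were tested, and only 2 were protein-coding. The long noncoding RNA *AW112010*, on the minus strand outside the plus-strand block, was left out by its type. It was at 1.72, 1.75 and 2.00 RPKM in Hoxa9/MTV and at 0.115, 1.18 and 1.23 in Hoxa9/IRX3, without overlap. The processed pseudogene RP24-512H17.5, also left out, had means of 150 and 154 RPKM.

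The 12 other *Ms4a* genes were mostly silent. *Ms4a1*, the CD20 gene, and *Ms4a5*, *Ms4a10*, *Ms4a12*, *Ms4a13* and *Ms4a15* had no read in any mouse, and 3 more had 3 reads or fewer in all. *Ms4a2*, the IgE receptor beta chain gene that lies 5.78 kb from *Ms4a3*, was at 0.290, 0.279 and 0.542 RPKM in Hoxa9/MTV and at 1.09, 0.610 and 0.933 in Hoxa9/IRX3. Every Hoxa9/IRX3 mouse was above every Hoxa9/MTV mouse, but the log2 change of 0.66 (SE 0.19) did not pass the test (limma, adjusted p = 0.103). *Ms4a8a* had 15, 26 and 68 reads in Hoxa9/MTV and 1, 7 and 3 in Hoxa9/IRX3. The cohorts did not overlap, and its log2 change of -0.55 (SE 0.22) did not pass either (limma, adjusted p = 0.191). It passed the filter through mouse 1.4 alone. The more distant relatives *Tmem176a* and *Tmem176b*, on another chromosome, were not called (limma, adjusted p = 0.967 and 1), and their estimates changed sign with the mouse left out.

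Genes whose products work with MS4A proteins were taken from a list of 15, of which 14 were in the table and 9 were tested; 2 were called lower and 0 higher. *Fcer1g*, the common gamma chain of Fc receptors that pairs with the *Ms4a2* product, was at 42.3, 41.3 and 43.2 RPKM in Hoxa9/MTV and at 18.6, 14.1 and 14.2 in Hoxa9/IRX3. All Hoxa9/IRX3 mice were low, with a log2 change of -1.42 (SE 0.15, limma, adjusted p = 0.00843). *Cd79b*, a chain of the B cell receptor, was at 6.11, 7.07 and 7.01 RPKM in Hoxa9/MTV and at 0.330, 0.149 and 2.31 in Hoxa9/IRX3, and it also fell (log2 change -2.65, SE 0.52, limma, adjusted p = 0.0383). The gene for the IgE-binding chain, *Fcer1a*, was at 0 in all mice. The partners of *Ms4a3* did not pass: *Cdkn3* changed by 0.31, *Cdk2*, which that phosphatase acts on, by -0.41, and *Csf2rb*, the beta chain of the GM-CSF receptor, by 0.19 (limma, adjusted p = 0.366, 0.157 and 0.682). *Tyrobp*, the adaptor of TREM2, changed by -1.06 (SE 0.33, limma, adjusted p = 0.114), and *Trem2* was too low to test.

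Markers of cell types moved with these genes in part. Among monocyte and macrophage markers, 14 of 15 were in the table, 11 were tested, and 3 were called lower and 0 higher. These were *Ccr2*, the chemokine receptor of monocytes, at 18.7 to 26.3 RPKM in Hoxa9/MTV and 3.69 to 6.48 in Hoxa9/IRX3, the lysosomal protein gene *Cd68* (log2 change -2.68) and the transcription factor gene *Klf4* (-2.24). Among the tested monocyte and macrophage markers not called, *Ly6c2* and *Mrc1* had estimates above 0 (0.56 and 0.45). The others were below 0, with *Cd14* at -0.02. The summed level of the list overlapped between cohorts, at 796 to 893 RPKM and 588 to 1051 RPKM. *Ly6c2*, also an antigen of the sort, made up 50.1% to 83.7% of each sum. Without it the sums did not overlap, at 356 to 415 RPKM in Hoxa9/MTV and 164 to 261 RPKM in Hoxa9/IRX3. In every mouse *Lyz2* was the largest term of the sum that remained. *Lyz2* itself was not called (log2 change -0.83, limma, adjusted p = 0.104). These sums therefore weigh *Lyz2* most and do not stand for each gene of the list. All 14 neutrophil and granulocyte precursor markers were tested and 3 were called higher: *Elane* (log2 change 1.91), *Gfi1* (1.71) and *Ly6g* (1.35). *Ly6g*, also an antigen of the sort, passed the filter through Hoxa9/IRX3 alone. It was at 0.0532 to 0.145 RPKM in Hoxa9/MTV and 0.682 to 1.42 RPKM in Hoxa9/IRX3. Of those not called, *Fcnb*, *Ltf*, *Mmp8* and *Ngp* had estimates below 0 (-1.27, -0.99, -0.75 and -0.13). The summed level of the 14 genes was 3161 to 4623 RPKM in Hoxa9/MTV and 6924 to 7669 in Hoxa9/IRX3, and 2547 to 3570 against 3592 to 5432 RPKM without *Elane*. The part of either cell type in the MS4A values was not tested.

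Markers of other lineages stood at lower levels. Of 5 mast cell and basophil markers tested, 2 were called lower, *Cpa3* and *Gata2*, while *Ms4a2*, which is on that list, had higher values in Hoxa9/IRX3. The summed level of that list was 16.1 to 21.8 RPKM in Hoxa9/MTV and 4.80 to 8.02 in Hoxa9/IRX3, and 3 of its 9 genes were at 0 in all mice. The B cell list summed to 6.26 to 7.13 RPKM against 0.276 to 2.31, and its defining gene *Ms4a1* was at 0. *Cd79b* was nearly all of the sum in the Hoxa9/MTV mice and mouse 3.5. In mice 3.2 and 3.3 *Cd79b* was at 0.330 and 0.149 RPKM and *Cd79a* at 0.258 and 0.127. T and NK cell markers summed to at most 0.109 RPKM and erythroid markers to at most 0.303 in any mouse. The dendritic cell sum was 3.28 to 4.89 RPKM against 0.128 to 5.80, the megakaryocyte sum 3.52 to 5.33 against 1.61 to 12.3, and the stromal sum 1.83 to 1.91 against 0.535 to 6.19, with no gene of these 3 lists called.

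The profile of *Ms4a3* across mice followed other genes than that of *Ms4a6c*. As a description, the tested genes whose log2(RPKM + 0.5) profile was most like that of *Ms4a6c* over the 6 mice were *Mcmbp* (Pearson's r = 0.9992), *Ms4a6b* (0.9970), *Tmcc2* (0.9966), *Akna* (0.9960) and *Ccr2* (0.9959). The cohorts lie far apart in these genes, so the coefficients mostly restate the difference between cohorts. For *Ms4a3* they were *Arhgef3* (0.9945), *Trem1* (0.9911), *Dok2* (0.9860), *Pigx* (0.9851) and *Tmem248* (0.9838). *Trem1*, a receptor of neutrophils and monocytes, was at 1.77 RPKM in each Hoxa9/MTV mouse and at 3.01, 1.28 and 3.02 in mice 3.2, 3.3 and 3.5. Mouse 3.3 was again the low one.

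*Irf8*, a transcription factor gene of monocyte and dendritic cell development on the monocyte list, was singled out after its values were seen. It was at 39.6, 27.0 and 25.5 RPKM in Hoxa9/MTV and at 2.61, 63.1 and 2.98 in Hoxa9/IRX3. Among the Hoxa9/IRX3 mice its order was opposite to that of *Ms4a3*: mouse 3.3 was the highest of all mice, and mice 3.2 and 3.5 the lowest. *Irf8* was not called (log2 change -1.79, SE 1.13, limma, adjusted p = 0.367). *Ms4a6c* did not follow it, being low in all Hoxa9/IRX3 mice, with 0.199 RPKM in mouse 3.3 and 0.941 RPKM in mouse 3.2. *Tmem109*, a gene of the flank within 500 kb, had the same order across the Hoxa9/IRX3 mice as *Irf8*, at 0.687, 8.74 and 0.818 RPKM.

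**Figure D4:**
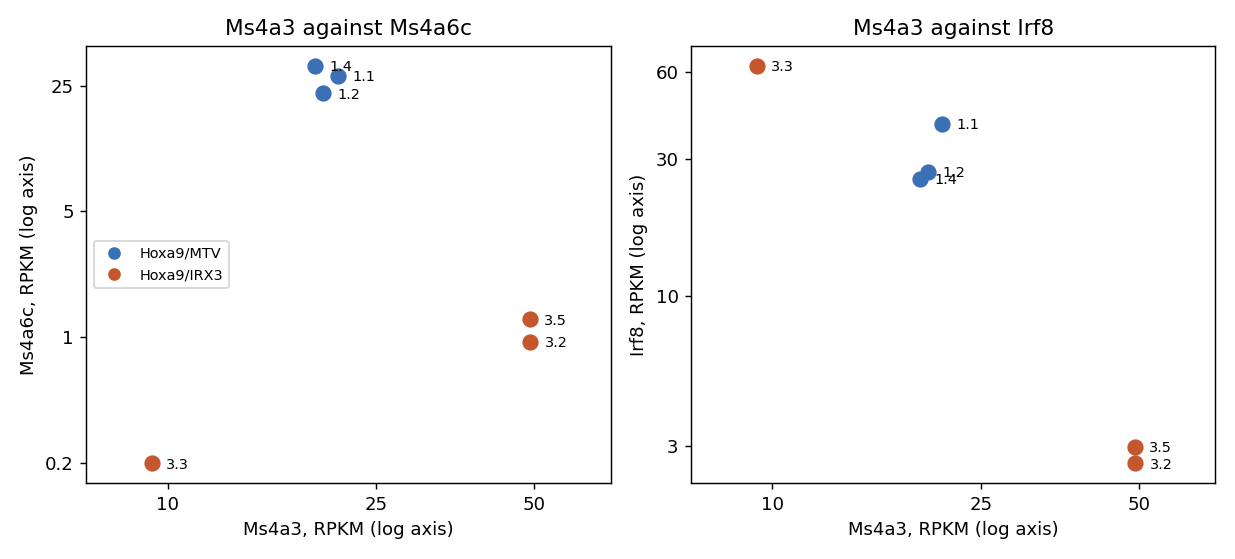
RPKM of *Ms4a3* (horizontal, log axis) against *Ms4a6c* (left) and *Irf8* (right; vertical, log axes) in each Hoxa9/MTV (blue) and Hoxa9/IRX3 (orange) mouse, labelled by number. Mouse 3.3 lies with its cohort in *Ms4a6c*, at 0.199 RPKM, but apart from mice 3.2 and 3.5 in *Ms4a3*, at 9.33 RPKM, and in *Irf8*, at 63.1 RPKM.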

How the data were processed

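RNA sequencing of sorted KIT+Gr1+ cells from 6 mice (3 per cohort, separate animals) gave 1 deposited table of RPKM for 41128 genes. Per the labels, the authors made strand-specific polyA paired-end libraries, and their processing notes name Bowtie2 2.2.1 and SAMtools 0.1.19. The deposited RPKM divide reads by the full gene span and by library size. Reads were recovered from the RPKM steps. In each library 77.2% to 77.6% of detected genes came out whole within 0.05 read, and depths were 7979246 to 9803621 reads. For *Ms4a4b* the reads were whole on a span of 20.0 kb rather than the annotated 23.5 kb. There were 0 unused sample columns.

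limma 3.58.1 (R 4.3.3, variance trend) was fitted to log2(RPKM + 0.5) of 9522 protein-coding genes with RPKM over 0.5 in at least 1 mouse, with Benjamini-Hochberg adjustment. A call needed adjusted p under 0.05 and a change of at least 2-fold. The fit was tested on simulated data. Fold changes on this scale understate the change of low genes. The members and lists were chosen with earlier results of these data known. Named were all members, all other *Ms4a* genes with *Tmem176a* and *Tmem176b*, called or edge genes within 500 kb, a list of partners, the introduced genes, and the 5 genes most like *Ms4a6c* and *Ms4a3* by Pearson's r. Other genes named were marker genes or were singled out after their values were seen. Promoters were RefSeq sequences of GRCm38.p6, and gene positions are those of GENCODE on the same build. Alternatives covered the pseudocount, filter, gene types, scaling, length, test, criterion and each mouse left out.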

Additional observations from a re-analysis of the deposited data

How the results depend on the processing

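The falls of *Ms4a6c* and *Ms4a6b* were called under all 11 other settings and in all 6 fits that left out 1 mouse, with log2 changes of -5.55 to -4.03 and -5.19 to -2.55 over the settings. The number of members called lower was 2 to 4 over the settings, with *Gm8369* as the added gene per kilobase of exon, and 2 in each fit with 1 mouse left out (2 to 2). *Ms4a4c* was the gene lost. It also lost its call with a pseudocount of 1 (log2 change -0.71), with no filter, with all gene types and with limma voom on the recovered reads (-6.63), and with RPKM over 0.5 required in at least 3 mice it was not tested. The number of members called higher was 0 under every setting and 0 to 1 with 1 mouse left out, the 1 being *Ms4a3* without mouse 3.3 (log2 change 1.28). *Ms4a2* alone among the other family genes was called under the criterion of the study, an unadjusted p and a ratio of means (1 gene, log2 ratio 1.24). The share of all tested genes called in either direction ranged from 1.19% without the filter to 6.97% under that criterion, and from 0.645% without mouse 1.4 to 4.43% over the fits with 1 mouse left out. The cause of these differences was not tested. Scaling moved the median change of all genes by 0.072 or 0.086. No paired analysis was possible because the groups share fewer than 2 replicate numbers: the numbers name single animals. The 3 mice per cohort and genes of few reads limit what could be called.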
